A study of Arabidopsis thaliana with 4 samples.

Results

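The 2 samples of wild-type Col-0 inflorescence were profiled among the 4 samples of the series, and only these 2 are described. Members were taken by their titles, Col-0 flower 1 and Col-0 flower 2, called sample 1 and sample 2 here. Col-0 is the Columbia reference accession of Arabidopsis thaliana, and the labels of these 2 samples name no mutation and no treatment. Growth was at 21 °C under a day of 16 h light followed by 8 h darkness, and inflorescences with flowers of mixed stages were frozen in liquid nitrogen. Labelled RNA made from 15 µg of total RNA was hybridized to the ATH1 oligonucleotide array. Plant age, the number of plants pooled and whether the 2 samples came from separately grown plants are not given in the sources used here. Technical and biological parts of the spread between the samples therefore cannot be told apart.

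An inflorescence holds the shoot meristem that forms flowers, buds of every age and open flowers. Green sepals, stem and carpel walls carry chloroplasts and photosynthesize. Within the anther, a nutritive layer called the tapetum feeds the developing pollen and supplies its coat. Regulators of floral organ identity act in small groups of cells of young buds, whereas genes for photosynthesis, translation and the cytoskeleton are used by large parts of the tissue. In whole tissue, fewer cells of a type and less RNA per cell cannot be told apart.

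After the 64 control probe sets were left out, 22746 probe sets remained in each sample. The median signal was 242 in sample 1 and 239 in sample 2, on the linear intensity scale of the array. One sample's highest signal was 23756 and the other's was 24867, while the lowest was 0.1 in both. Signal of at least 10000 was given by 132 probe sets in sample 1 and 137 in sample 2. The array carries older and newer control probe sets for both transcript ends, compared here as the log2 ratio of 5′ to 3′ signal. The newer actin pair gave -0.67 in each sample, and the older one gave -2.86 in sample 1 and -3.04 in sample 2. The newer GAPDH pair gave 0.05 and 0.09, against -0.61 and -0.49 for the older pair. Ubiquitin gave -0.18 and -0.22 with the newer pair, and -0.77 and -0.85 with the older. The ratio thus depended far more on the probe set than on the sample. The 25S ribosomal RNA control gave 763 in sample 1 and 296 in sample 2. Its part in the differences described below was not tested.

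Probe sets were ranked by the mean linear signal of both samples, rank 1 being the brightest. A probe set's signal depends on its probes as well as on its transcript, so ranks order brightness and not numbers of transcripts. Percentiles give the share of the 22746 probe sets that were dimmer. The annotation used here pairs 59.4% of all probe sets with exactly 1 gene, but only 26 of the 100 brightest. The description of the brightest transcripts therefore covers a minority of them. In all, 13286 genes had a named probe set, 1535 of them with a gene symbol in the reference and 11751 known there by their locus alone.

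Signal was concentrated in few probe sets. The 100 brightest held 9.63% of the summed signal, 9.60% in sample 1 and 9.74% in sample 2, and the 1000 brightest held 41.3%. Mean signal was 24312 at rank 1, 11425 at rank 100, 2811 at rank 1000 and 304 at rank 10000. Both samples named nearly the same leaders: 89 of the 100 brightest of sample 1 were among the 100 brightest of sample 2, and 917 of the 1000 brightest were shared.

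Among the 30 brightest probe sets with 1 named gene, 6 belong to the plastid genome, 4 are nuclear genes with a symbol and 20 are nuclear loci without one. The brightest was psbM, a small subunit of photosystem II, at rank 3 with 21076 in sample 1 and 21976 in sample 2. Next came the neighbouring plastid genes atpB (20190 and 19875) and atpE (19243 and 18211), which encode the β and ε subunits of the chloroplast ATP synthase. In all 3 genes the samples lay within a few percent of each other. The further plastid genes were psaJ of photosystem I (15888 and 16412), petB, the cytochrome b6 gene (14727 and 14033), and matK, which encodes a maturase for group II introns (12209 and 12351).

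The 4 nuclear genes with a symbol in that set differ in role. RCA encodes rubisco activase, which frees the active sites of the carbon-fixing enzyme, and gave 16693 and 14421. GAPC2, a cytosolic glyceraldehyde-3-phosphate dehydrogenase of glycolysis, gave 14566 and 13911. Signals of SAMDC, the S-adenosylmethionine decarboxylase that feeds polyamine synthesis, were 14246 and 12904. ECS1 gave 10299 and 15029, a 1.46-fold gap with sample 2 higher. For the first 3 genes sample 1 was the higher one, by no more than 1.16-fold.

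The 20 loci without a symbol ran from AT5G20290 at rank 23 (15958 and 16452) to AT3G53430 at rank 120 (10464 and 10550). No role is given in the tables used here for them, and none is stated. The other 18 are AT4G39200, AT3G60245, AT2G20870, AT1G78040, AT1G01100, AT3G49910, AT2G25510, AT4G27090, AT1G09310, AT1G52300, AT3G09200, AT2G34480, AT1G66850, AT5G02870, AT2G41840, AT5G15200, AT2G01250 and AT1G67430. AT2G25510 stood out by its gap, with 9080 in sample 1 and 17142 in sample 2. Its 1.89-fold ratio was the widest among the 30, whose median ratio was 1.05. Only 3 of the 30, AT2G25510, ECS1 and AT2G20870 (12836 and 15580), were over 1.2-fold apart. Sample 2 was higher in 22 of the 30 as deposited, beside 45.1% of all genes with a named probe set. With quantile normalization it was higher in 16 of the 30, beside 48.4% of all genes with a named probe set.

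**Figure D1:**
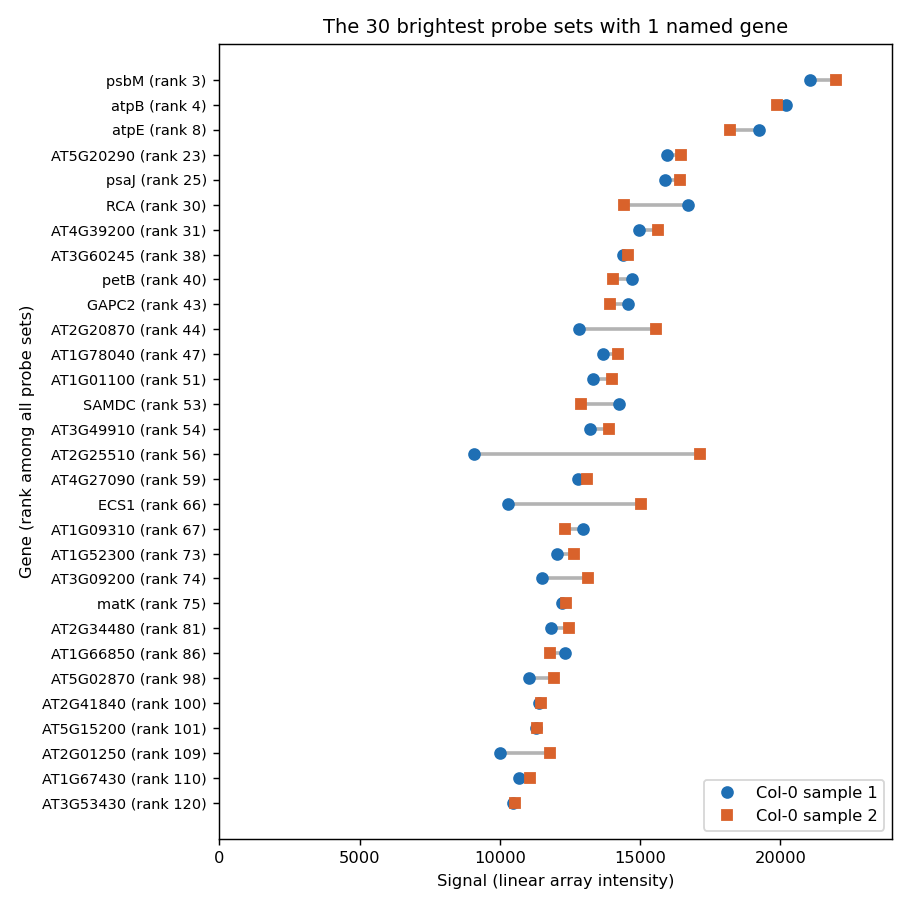
Linear array signal (x axis) of the 30 brightest probe sets with 1 named gene (y axis, with the rank among 22746 probe sets), as a circle for sample 1 and a square for sample 2, joined by a grey line. The symbols nearly coincide in most rows, and the widest gap is that of AT2G25510, at 9080 and 17142.

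Further bright genes with a symbol were chosen after their values were seen. Several encode small secreted defence peptides. THI2.1, a thionin, gave 10148 in sample 1 and 7547 in sample 2, the defensin gene LCR69 gave 6396 and 10643, and its family member LCR68 gave 5322 and 5653. Sample 1 was higher for THI2.1 and sample 2 for both defensin genes.

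Enzymes of primary metabolism and protein turnover were also bright. TPI, the cytosolic triose phosphate isomerase, gave 7272 and 8994. APA1, an aspartic proteinase of the vacuole, gave 7861 and 8449. CYTC-1, a cytochrome c of the mitochondrial electron transport chain, gave 7277 and 7933. The 3 genes ranked between 215 and 251, and sample 2 was higher in each.

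Another set of bright genes acts in secretion, cell walls and protein processing. The carboxypeptidase gene SCPL49 gave 4062 and 4712, and the subtilase genes SBT1.3 (4473 and 4024) and ARA12 (4856 and 3526) were near it. GH9B13, a glycosyl hydrolase, gave 4798 and 4061. RALFL34, of a family of secreted signalling peptides, gave 4390 and 4374. Among these, only ARA12 exceeded a 1.2-fold gap.

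Photosynthesis genes formed the brightest of the 15 marker lists, and all members with a named probe set that were matched are nuclear. All 14 with a named probe set, of 85 list entries matched to the reference, lay in the top 10% of probe sets by mean signal. Their median percentile was 98.5, beside 44.1 for all genes with a named probe set, of which 7.08% reached the top 10%. The list also held the plastid gene rbcL, which was not among the matched entries. Its percentile was 83.8, outside the top 10%. PORB reached the top 10% only by its mean, since its 630 in sample 1 was below that sample's 90th percentile of 1394. After RCA came LHCB4.1, a minor antenna protein of photosystem II (9900 and 11002), PSAE-1 of photosystem I (9040 and 8958) and PSBW of photosystem II (8440 and 8642). ATPC1, the γ subunit of the chloroplast ATP synthase, gave 7421 and 7966. The Calvin cycle enzymes PRK (6699 and 5938) and SBPASE (6622 and 5946) were close behind.

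The dimmest of the 14 were LHCB4.3 (4223 and 4887), the thylakoid protein gene TROL (2855 and 2252) and PORB. PORB encodes a light-dependent protochlorophyllide oxidoreductase of chlorophyll synthesis, and gave 630 in sample 1 and 2509 in sample 2. It was the only one of the 14 that was 2-fold apart on the log2(signal + 32) scale, beside 2.63% of all genes with a named probe set. The other 13 had ratios of at most 1.32, and the list's median difference corresponded to 1.12-fold. By direction, 8 were higher in sample 1 and 6 in sample 2, while 54.7% of all genes with a named probe set were higher in sample 1. The split moved to 10 and 4 with quantile normalization and to 7 and 7 when each sample was divided by its median.

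Transcripts of the plastid genome were bright as well, although the group was described after its values were seen. Of 69 plastid genes with a named probe set, 63 lay above the median of all probe sets and 43 in the top 10%, with a median percentile of 94.6. Among all genes with a named probe set, 44.4% lay above the median, 7.08% in the top 10% and 45.7% in the dimmest 40%. A single plastid gene was in the dimmest 40%. At the lower end were rpoB, an RNA polymerase subunit (169 and 90.5), psbN (174 and 143) and petD (194 and 199). The genes for 2 abundant chloroplast proteins were not among the leaders: rbcL, the large subunit of rubisco, gave 1107 and 721, and psbA, the D1 protein of photosystem II, gave 2157 and 2000.

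By complex, the 5 photosystem I genes had a median percentile of 96.2, the 15 ribosomal protein genes 95.7 and the 6 ATP synthase genes 95.5. The 15 photosystem II genes had 93.6. The 4 RNA polymerase genes had 88.4, the 6 cytochrome b6f genes 84.9 and the 10 genes of the NADH dehydrogenase-like complex 82.7. Probe sets of one complex differed widely in signal, as those of the adjacent genes petB and petD show. How much of this lies in the probes and how much in the transcripts was not tested. Signals of different probe sets, also those of psbM, atpB, psbA and rbcL, do not give relative transcript numbers.

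Between the samples the plastid genes leaned to one side: 54 of 69 were higher in sample 1, and 56 with quantile normalization, where psbM was tied. Among all genes with a named probe set, 54.7% were higher in sample 1 and 45.1% in sample 2 as deposited. With quantile normalization 51.2% were higher in sample 1. Of 53 adjacent plastid pairs above the median, 39 had the same sample higher, and since most plastid genes leaned to sample 1, nothing is read from that share. Some neighbours went opposite ways, such as ndhE and psaC. Runs with the same direction were also seen, and those named here were chosen after their values were seen. The adjacent genes psbK (2339 and 4819) and psbI (3006 and 4999) of photosystem II were both higher in sample 2, as were ndhE (1338 and 2396) and ndhG (359 and 702). Opposite to them, the adjacent genes ycf4 (2300 and 1250), cemA (4180 and 2727) and petA (5189 and 3350) were higher in sample 1. At least 1 apart on the log2(signal + 32) scale were psbC, with 2425 and 1047, psbK, and ndhF, with 354 and 754. They are 3 of the 69, beside 2.63% of all genes with a named probe set.

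**Figure D2:**
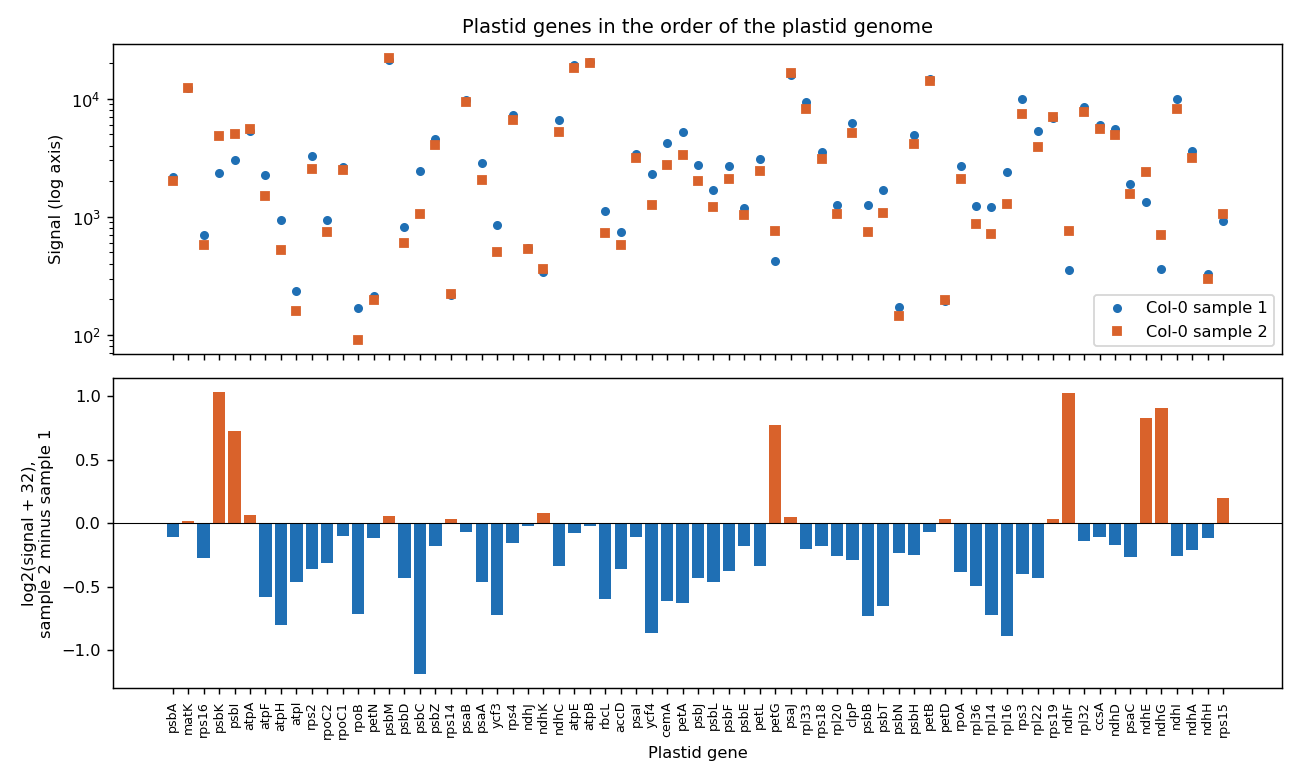
Upper panel: signal (log axis) of 69 plastid genes in the order of the plastid genome, as circles for sample 1 and squares for sample 2. Lower panel: difference of log2(signal + 32), sample 2 minus sample 1, where most bars point down and the tallest upward bars belong to psbK, ndhF, ndhG, ndhE, petG and psbI.

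Reference and cytoskeletal genes were bright and close between the samples. Their list had 19 named members of 59 matched, with a median percentile of 84.9 and 8 members in the top 10%. Over all genes with a named probe set the median percentile was 44.1, and 7.08% were in the top 10%. On the log2(signal + 32) scale the median difference corresponded to 1.06-fold, beside 1.14-fold over all genes with a named probe set. Besides GAPC2, the brightest were the α-tubulin gene TUA6 (7379 and 8200) and UBC28, a ubiquitin-conjugating enzyme (6054 and 6001). The β-tubulin genes TUB6 (2464 and 2620), TUB9 (2180 and 2535) and TUB7 (2058 and 2168) followed.

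Genes in common use as references for inflorescences and other tissues covered a wide range of signal. PEX4, of peroxisome biogenesis, gave 994 in sample 1 and 948 in sample 2. AT4G26410 gave 1609 and 1653, AT5G46630 gave 1156 and 1331, and AT2G32170 gave 799 and 835. Signals of AT2G28390 were 563 and 577, and those of AT4G34270 were 429 and 422. In all 6 the samples were at most 1.15-fold apart.

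Dimmer reference genes were AT5G15710 (258 and 179), AT5G55840 (113 and 110), AT5G12240 (97.1 and 112) and AT3G32260 (85.6 and 93.0). Some members of the list were not steady. AT4G33380 gave 1031 in sample 1 and 484 in sample 2. It was the only member of the 19 at least 1 apart on the log2(signal + 32) scale, beside 2.63% of all genes with a named probe set. TUB5 gave 1316 and 2382, and TUB1 gave 612 and 870. Together with AT5G15710, these 3 genes had the widest gaps of the list, from 1.42-fold to 2.13-fold. Sample 2 was higher for both tubulins and sample 1 for the other pair.

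Floral organ regulators covered dim to moderate signals. Of 50 list entries matched, 16 had a named probe set, and their median percentile was 32.5, beside 44.1 for all genes with a named probe set, with none in the top 10% and 9 in the dimmest 40%. Over all genes with a named probe set, 45.7% were in the dimmest 40% and 7.08% in the top 10%, so these counts are not far from the background. The classic organ identity genes AP1, AP3, PI and AG had no named probe set here and were not analysed. The brightest was BPEp (658 and 749), a basic helix-loop-helix factor that limits petal size. SEU, a transcriptional corepressor of AG, gave 663 and 589, and ALC, which acts in opening of the fruit, gave 682 and 471.

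NGA1, of style development, gave 301 and 274, and ULT1, which limits floral meristem activity, gave 330 and 228. At the other end UFO, an F-box protein that acts with LFY, gave 10.8 and 9.90. RBE, a petal factor, gave 54.0 and 8.60, and SAP, of flower and ovule development, gave 13.0 and 53.1. At such signals the samples can lie several-fold apart in either direction. The 8 members in between, among them SPT of the carpel and AGL24, had mean signals between those of ULT1 and SAP.

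Meristem and boundary genes had 4 named members of 35 matched. PHV, a homeodomain factor of the upper organ side, gave 505 and 561. The YABBY genes YAB3 (332 and 296) and YAB5 (161 and 145), which mark the lower organ side, were dimmer. CLV3, the peptide gene expressed in a few stem cells at the meristem tip, gave 7.0 and 6.9, among the dimmest signals of both samples. Dividing tissue was represented by 5 named cell cycle genes of 41 matched. PRL, a subunit of the replicative helicase, gave 744 and 674, and TOPII, a DNA topoisomerase, gave 671 and 581. The Aurora kinase genes AUR1 (599 and 698), AUR2 (370 and 485) and AUR3 (203 and 210) completed the list, and no member was 2-fold apart.

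Tapetum and anther genes included 1 of the brightest tissue markers. Of 50 list entries matched, 6 had a named probe set. ATA27, a β-glucosidase gene of the tapetum, gave 6481 in sample 1 and 5845 in sample 2, at rank 354. SWEET8, a sugar transporter needed for the pollen wall, gave 1177 and 1088. EMS1, the receptor kinase that specifies tapetal fate, gave 754 and 578, and the tapetal transcription factor AMS gave 529 and 526. SPL, which starts the formation of sporogenous cells, gave 117 and 83.9, and ROXY2, a glutaredoxin of anther development, gave 75.8 and 42.9. All 6 were higher in sample 1, where 54.7% of all genes with a named probe set were higher, although AMS turned to sample 2 with quantile normalization and with division by the median.

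The pollen list had a median percentile of 43.2 over 12 named members of 56 matched, close to the 44.1 of all genes with a named probe set. The brightest were the actin gene ACT11 (1375 and 848) and the pollen α-tubulin gene TUA1 (1077 and 850). PLIM2a (663 and 408) and PLIM2b (492 and 377), which encode actin-bundling LIM proteins of pollen, came next, before the actin gene ACT12 (267 and 197). The dimmest were the MADS-box genes AGL104 (108 and 90.6) and AGL30 (76.7 and 36.6) and the pollen tube receptor kinase gene ANX1 (44.1 and 35.2). Sample 1 was higher in 11 of 12, also with both scaling alternatives, while 54.7% of all genes with a named probe set were higher there as deposited. The exception was AGL18 (176 and 206). The median difference corresponded to 1.27-fold, and none was 2-fold apart on the log2(signal + 32) scale.

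The meiosis list, with 6 named members of 31 matched, had the lowest median percentile of the lists. All 6 named members were in the dimmest 40% of probe sets, with a median percentile of 16.4, beside 45.7% of all genes with a named probe set in that range. ATMND1, which acts in strand invasion, gave 119 and 126, and SPO11-2, of the complex that breaks DNA to start recombination, gave 84.5 and 66.6. The cyclin gene SDS gave 30.7 and 59.1, and ZYP1b, of the synaptonemal complex, gave 21.8 and 35.1. RCK, a helicase of crossover formation, gave 22.9 and 6.90, and ATSPO11-1 gave 15.0 and 14.2. No member was at least 1 apart on the log2(signal + 32) scale, which compresses signals this low.

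Ovule and seed markers, with 5 named members of 38 matched, split by gene. FER, a receptor kinase of the female gametophyte that is also used in other tissues, gave 1265 and 1517. DME, a DNA glycosylase of the central cell, gave 237 and 291, and INO, of the outer integument, gave 186 and 190. IKU2, a receptor kinase of endosperm growth, gave 9.80 and 27.5. BAN, the anthocyanidin reductase of the young seed coat, gave 670 in sample 1 and 182 in sample 2. It was the only member at least 1 apart on the log2(signal + 32) scale, beside 2.63% of all genes with a named probe set.

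Genes of flavonoids and other phenolics had 4 named members of 26 matched, with a median percentile of 86.1. The flavonol glycosyltransferase gene UGT78D1 gave 2291 and 1508, and UGT78D2 gave 1026 and 719. SHT, which makes spermidine conjugates of the pollen coat, gave 1148 and 1478. DFR, of anthocyanin synthesis, was the dimmest with 388 and 187, the second value being below the median of its sample. Sample 1 was higher in 3 of the 4, SHT being the exception, beside 54.7% of all genes with a named probe set. With 4 genes no lean is read from this count. The cuticle list had 2 named members of 38 matched. Its wax ester synthase gene WSD1 gave 3975 and 2282, and SHN3, a regulator of cutin, gave 503 and 445.

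**Figure D3:**
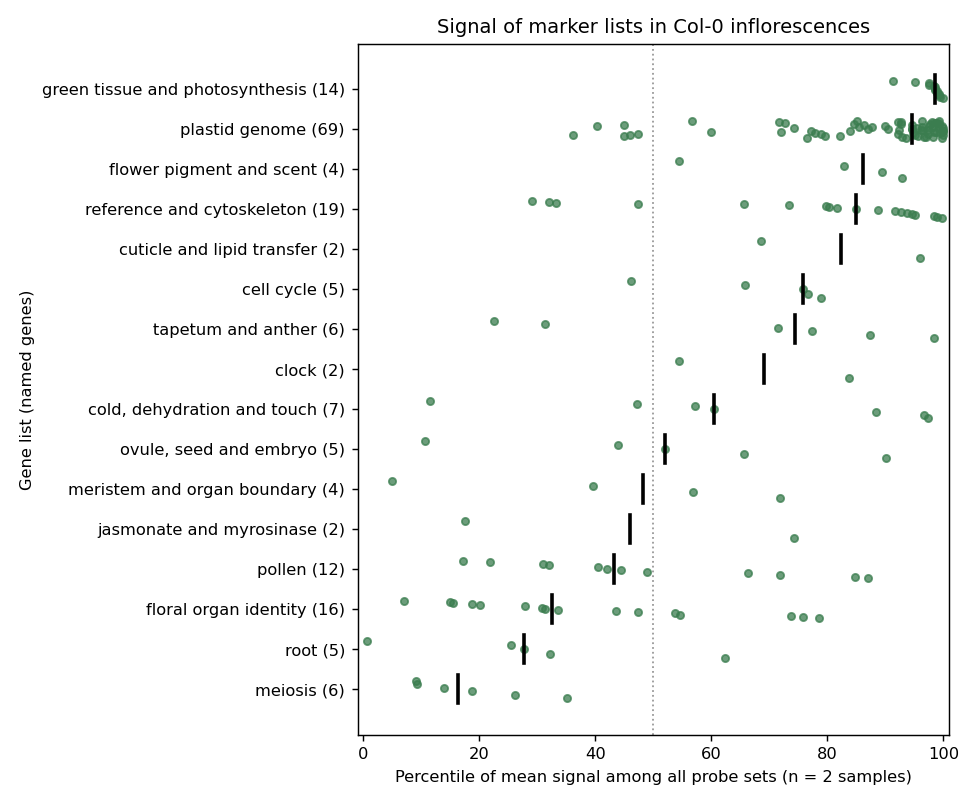
Percentile of mean signal (x axis, 2 samples averaged) for each named member of the 15 marker lists and of the plastid genome (y axis, number of named genes in brackets), with a black bar at each median and a dotted line at 50. Photosynthesis genes crowd the right edge with a median of 98.5, while floral organ, root and meiosis lists have medians of 32.5, 27.7 and 16.4.

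Gene families were collected by symbol patterns. Photosystem subunits, which overlap the photosynthesis list, had a median percentile of 98.7 over 8 genes. Tubulins had 93.7 over 7 genes, and 7 histone genes had 90.2. Of the histones, HTB4 (3390 and 3616) and HTB1 (2049 and 2022), both for histone H2B, were brightest, and HTR12, the centromeric histone H3, gave 243 and 250. Expansins, which loosen cell walls, had 19 named members with a median percentile of 41.3. EXPB3 (3560 and 2768) and EXPA8 (2653 and 1784) led them, and 9 of the 19 were in the dimmest 40%, a share close to the 45.7% of all genes with a named probe set.

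Xyloglucan endotransglucosylases, which remodel walls, had 10 members, from XTH32 (2306 and 1449) down to XTH21 (2.00 and 2.00). Among 13 glutathione transferases the brightest were GSTL3 (2438 and 2748) and GSTU20 (1366 and 2265). The expansin, xyloglucan endotransglucosylase and glutathione transferase families each held bright and dim members, whereas all tubulins and photosystem subunits lay above the median.

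Root markers had 5 named members of 40 matched, too few to check the tissue label. In the dimmest 40% were 4 of them, beside 45.7% of all genes with a named probe set. The root hair expansin genes EXPA7 (102 and 110) and EXPA18 (78.2 and 86.3) and the root β-glucosidase gene PYK10 (88.6 and 56.3) were dim. AGL21 gave 1.80 in both samples. The exception, AGL42 (378 and 384), is known from flowers as well as from roots.

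The cold, dehydration and touch list, with 7 named members of 35 matched, had the widest median difference between the samples among the lists. LTI30, a dehydrin, gave 85.5 in sample 1 and 547 in sample 2. COR15B gave 438 and 1997, and its neighbour COR15A gave 2422 and 4778; both encode chloroplast proteins that protect membranes from freezing. The zinc finger gene STZ gave 176 and 537, WRKY53 gave 139 and 295, and the calmodulin-like gene CML38 gave 9.10 and 33.0. COR47, another dehydrin, went the other way with 4376 and 4025. Sample 2 was thus higher in 6 of 7, also with both scaling alternatives, beside 45.1% of all genes with a named probe set as deposited. At least 1 apart on the log2(signal + 32) scale were 3 of the 7, beside 2.63% of all genes with a named probe set. The list was written with earlier results of these data known, so these counts are a description only. The list's median percentile was 42.6 in sample 1 and 72.5 in sample 2.

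The clock list had 2 named members of 25 matched. GI, an evening gene, gave 214 and 360, and TIC gave 960 and 863. Of the jasmonate and myrosinase list, 2 members of 28 matched were named. The jasmonate methyltransferase gene JMT gave 635 and 541, and the defensin gene PDF1.2 gave 52.6 and 28.9. None of these 4 was 2-fold apart.

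Over all probe sets the samples differed little. The median absolute difference of log2(signal + 32) was 0.19, and for 90% of probe sets it was at most 0.62. This scale compresses the ratios of dim probe sets. Across the 22746 probe sets, which are no independent replicates, the log2 values correlated at r = 0.98. At least 1 apart were 660 probe sets, 2.9% of all, of which 368 were higher in sample 2 (1.62%) and 292 in sample 1 (1.28%). With quantile normalization these counts were 411 and 249. With only 2 samples of 1 group, no difference was tested and no p-value was computed.

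The spread depended on signal. In the brightest 10% of probe sets, with means above 1386, the median absolute difference of log2(signal + 32) was 0.14. It was 0.41 in the second group of 10% from the bottom, with means from 16.9 to 49.7, where 9.89% of probe sets were at least 1 apart. In the dimmest 10% the added 32 hides differences, and none was at least 1 apart. Among probe sets above the median signal, 212 of 11372 were at least 1 apart (1.86%), with 145 higher in sample 2 (1.28%) and 67 in sample 1 (0.589%).

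**Figure D4:**
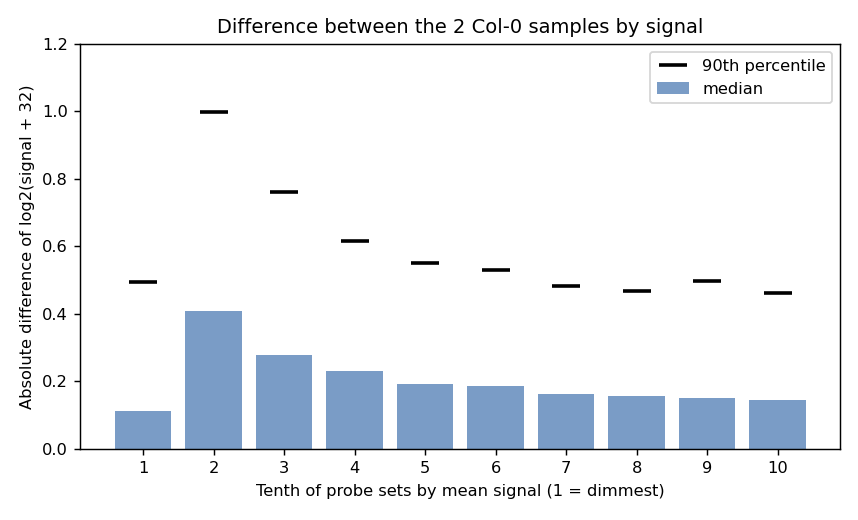
Absolute difference of log2(signal + 32) between the samples (y axis) for 10 equal groups of probe sets by mean signal (x axis, 1 is the dimmest), with bars at the median and dashes at the 90th percentile. The median falls from 0.41 in the second group to 0.14 in the brightest, and the low bar of the dimmest group reflects the added 32.

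The widest gaps among named genes above the median signal lay far outside this spread. Of 5904 such genes, 87 were at least 1 apart (1.47%), 61 with sample 2 higher (1.03%) and 26 with sample 1 higher (0.44%). Of the 12 widest, 11 were higher in sample 2. AT4G30650 gave 168 in sample 1 and 2719 in sample 2, a 16.1-fold ratio. Its neighbour AT4G30660 gave 385 and 1490, also higher in sample 2. This pair and the second one below are the only 2 nuclear neighbour pairs above the median with both genes at least 1 apart. They are named for that reason. Of 1435 nuclear neighbour pairs above the median, 51.7% had the same sample higher, so nothing is read from the 2 pairs. CCL, whose mRNA is known to be short-lived and controlled by the clock, gave 988 and 5500.

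A second adjacent pair was AT5G52760 (75.7 and 532) and AT5G52750 (108 and 404), again both higher in sample 2. The remaining genes of the 12 without a symbol were AT1G19960 (125 and 798), AT1G56300 (158 and 956), AT5G62360 (324 and 1622), AT3G60420 (122 and 672) and AT5G27280 (170 and 812). AT1G56100 was the single one higher in sample 1, with 774 and 153. CHI, annotated here as a chitinase at AT2G43570, gave 129 and 628. The cold genes LTI30 and COR15B, given above, complete the 12.

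Further genes with a symbol and a wide gap were chosen after their values were seen. Some of those higher in sample 2 encode chloroplast proteins. The chloroplast lipocalin CHL gave 421 and 1504, the starch enzyme DPE1 gave 227 and 657, and PIFI gave 883 and 1993. Other genes were also higher there, such as WLIM2a (571.5 and 1465), PDC2 (339 and 848) and BGLU44 (1327 and 2766). BCAT4, which starts the elongation of methionine for glucosinolates, gave 96.3 and 397. Higher in sample 1 were XTH19 (753 and 287), the plastid gene psbC (2425 and 1047) and HYH, a bZIP factor of light signalling (550 and 233). Of the 69 plastid genes, 54 were higher in sample 1, so no lean of chloroplast genes to sample 2 is read from these examples.

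**Figure D5:**
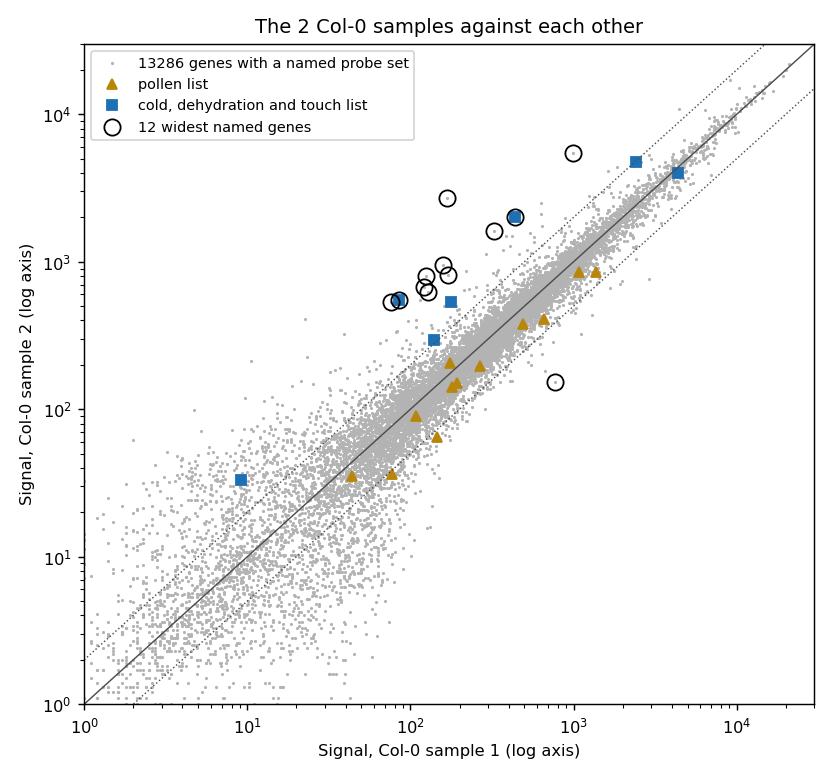
Signal in sample 1 (x axis) against sample 2 (y axis), both log axes, for 13286 named genes as grey points, without those under 1, with pollen genes as triangles, cold, dehydration and touch genes as squares and the 12 widest genes ringed. The solid line marks equal signal and the dotted lines a 2-fold ratio; 11 of the 12 rings lie above the lines and 11 of the 12 triangles below the solid line.

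At the other extreme, some bright genes were nearly identical in both samples. Of the 300 brightest named genes, AT5G27700 was closest, with 9218 and 9227, a mean of 9223 ± 6.29 (SD, n = 2). AT5G19760 gave 7079 and 7087, and AT5G15200 gave 11301 and 11324. OEP16-3, a channel protein of the OEP16 family, gave 3407 and 3412. RALFL34, AT1G53210, AT3G14600 and AT5G35530 complete the 8, with ratios of at most 1.004. For these 8 the choice by smallest difference fixes the outcome, so their closeness is a description.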

How the data were processed

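The deposited value table holds 1 linear intensity per probe set and sample, which the authors made with GCOS, as the submitters' processing notes state without a version. The mean after trimming 2% at each end was 500.04 in both Col-0 samples, so the values had been scaled before they were deposited. The 2 columns of the other genotype and the authors' table of ratios were not used.

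Intensities were used as deposited. Differences between samples are of log2(signal + 32), ratios of single genes are of linear signals, and median differences given as folds are on the log2(signal + 32) scale. Genes were named through the platform annotation, updated by gene identifier to TAIR10.1 names: 13513 probe sets have 1 gene, 503 several and 8730 are not listed, and 13436 matched. Where several probe sets named one gene, the brightest stood for it. Of 659 list entries, 637 matched the reference by locus and name, and 109 had a named probe set. The members and lists were chosen with earlier results of these data known. Named genes are the 30 brightest, up to 8 members of a list (otherwise the 5 brightest and 3 dimmest, with all reference genes), the 12 widest above the median signal and the 8 closest of the 300 brightest. The samples shared 46 identical values and were no duplicates. Computation used Python 3.11.15 with pandas 2.3.3, and the ranking and difference steps were tested on simulated data. With 2 samples, their number limits the precision. No sequences are shown because no sequence tables were used here. Of 12 gene families collected by symbol, 6 are described and the others are not reported here.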

Additional observations from a re-analysis of the deposited data

How the results depend on the processing

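No paired analysis was possible because a single group of 2 samples was described and no test was made. Each of the 12 widest genes kept its direction and stayed at least 1 apart in all 60 values with other pseudocounts, without the dimmest 40% or with other scalings. They were chosen as the widest in these same samples, and leaving out the dimmest 40% does not change their values. That outcome was therefore largely fixed in advance and is a description only. The median difference between samples was 0.21 with a pseudocount of 16, 0.16 with 64 and 0.16 without the dimmest 40%, and the number of probe sets at least 1 apart was 1268, 308 and 262 in that order; a smaller pseudocount lets dim probe sets count more, and the filter removes them. With sample 1 or sample 2 alone, the 100 brightest held between 9.60% and 9.74% of the signal. List medians then lay between 33.2 and 33.7 for floral organ identity, 44.4 and 49.5 for ovule and seed, 84.9 and 86.6 for pigment and scent, 84.5 and 85.9 for reference genes, 28.8 and 28.9 for root, and 74.0 and 74.8 for the cell cycle. For meiosis they lay between 13.5 and 19.7. The widest such range was that of cold, dehydration and touch genes, 42.6 to 72.5. Without probe sets of the suffixes _s_at and _x_at, floral organ identity gave 31.7 and root 26.9. The dimmest probe set per gene gave 31.1 for floral organ identity and 43.9 for ovule and seed, and ranking by log2 gave 27.9 for root. Among probe sets with 1 named gene only, which are dimmer as a whole, percentiles rose to 38.0 (floral organ identity), 54.1 (meristem), 79.5 (tapetum), 49.3 (pollen), 58.0 (ovule and seed), 89.8 (pigment and scent), 99.2 (photosynthesis), 88.8 (reference), 32.6 (root) and 80.9 (cell cycle). In each of these settings the medians ran, from high to low, photosynthesis, reference, pollen and root. Other lists changed places. With sample 1 alone, the cold, dehydration and touch list (42.6) fell below pollen (43.9). With sample 2 alone, ovule and seed (44.4) fell below meristem (47.1). The floral organ, meiosis and root lists had the lowest medians of the lists in the main ranking, at 32.5, 16.4 and 27.7. How far dim signal limits them was not tested.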
